A study of Mus musculus with 4 samples.

Results

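The replication-dependent histone genes were taken as the protein-coding genes of the FPKM table whose symbol begins with Hist1h, Hist2h, Hist3h or Hist4h. These were 67 of 22046 protein-coding genes and of 54532 genes in all, with 6 genes of class H1, 18 of H2A, 18 of H2B, 12 of H3 and 13 of H4. The symbol alone chose them, and no measured value did. FPKM is the number of fragments on a gene scaled to the length of the gene and to the size of the library.

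RNA was sequenced from 2 mouse libraries labelled Piezo1KO and 2 labelled WT, each described as CD4+ T cells taken from tumours of B16, a mouse melanoma line. Piezo1 is a cation channel that opens under mechanical force, and the series asks what it does in the differentiation of Th9 cells, CD4+ T cells that make interleukin 9. For both groups the labels name the tumour as the tissue and its microenvironment as the treatment, and they give no strain, age, sex or deletion strategy. Separate animals are not mentioned, so the p-values below may reflect technical spread among 4 libraries only.

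Genes were assigned 13789266 to 15892797 reads in each library. Mitochondrial genes took 20.1% and 48.3% of them in Piezo1KO 1 and Piezo1KO 2, against 3.86% and 2.99% in WT 1 and WT 2. Piezo1 itself had 18.7 and 7.64 FPKM in the Piezo1KO libraries, against 27.8 and 27.6 FPKM in the WT libraries, a log2 fold change of -1.14 ± 0.41 (SE) with an adjusted p of 0.166 in limma. Both Piezo1KO values lay below both WT values, and neither was near 0. The libraries also stood against their label. The 7 melanocyte markers summed to 6359 and 6391 FPKM in the Piezo1KO libraries, against 5700 and 5750 FPKM in the WT libraries. The 10 T cell markers summed to 14.9 and 10.3 FPKM in the Piezo1KO libraries, against 2.23 and 2.19 FPKM in the WT libraries, and Cd4 had 35 and 9 reads in the Piezo1KO libraries, against 1 and 3 reads in the WT libraries. Cd3e had 0 reads in Piezo1KO 2, and Trac, Trbc1, Trbc2 and Cd3g had 0 reads in WT 1. In such bulk samples, fewer cells of a type and less RNA per cell cannot be told apart.

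Replication-dependent histone genes lie in clusters and make the histones that package newly copied DNA, so their mRNAs are made mainly in S phase. Most have no intron, and their mRNAs end shortly after a conserved stem-loop instead of in a long poly(A) tail. The stem-loop is bound by Slbp, and the mRNA is cut downstream of it by a complex that holds the U7 small nuclear RNA. Some of these genes can also be read through to a polyadenylation signal further downstream, which gives a second, polyadenylated mRNA. Library kits that prime on poly(A) take up the tailless form poorly. The labels name an mRNA library kit made from total RNA and do not say how the RNA was primed.

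The 3′ ends of some of the genes with the highest mean FPKM are shown, because the stem-loop there is the feature that sets these mRNAs apart. Sequences are 5′ to 3′ on the strand of the gene, from GENCODE transcripts on GRCm38, with the stem-loop or the polyadenylation hexamer in capitals. The 16-base stem-loop was searched on the transcript strand as a 6-base stem that starts with GG and pairs with the other arm, around a 4-base loop of the form TNTN. No match was found in Hist1h2bc or Hist2h2be, which were also among the genes with the highest mean FPKM. Hist1h1c on chr13:23739507-23739532 (+), Hist1h4i on chr13:22040961-22040986 (-), Hist1h2bj on chr13:22043633-22043658 (+) and Hist1h3c on chr13:23745042-23745067 (-) gave these matches.
Hist1h1c stem-loop: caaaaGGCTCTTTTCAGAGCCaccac
Hist1h4i stem-loop: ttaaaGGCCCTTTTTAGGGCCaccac
Hist1h2bj stem-loop: ccaaaGGCTCTTTTCAGAGCCacgca
Hist1h3c stem-loop: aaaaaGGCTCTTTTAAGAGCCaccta

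The hexamer was searched as AATAAA or ATTAAA, 10 to 40 bases before the annotated transcript end. It was found in Hist1h1c on chr13:23740334-23740355 (+), in Hist1h4i on chr13:22040643-22040664 (-) and in Hist2h2be on chr3:96223709-96223730 (+).
Hist1h1c hexamer: atgcttctAATAAAaagcgttt
Hist1h4i hexamer: ctgtttacATTAAAagtattct
Hist2h2be hexamer: ttattattAATAAAgttaccga

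A stem-loop lay within the first 100 bases after the stop codon in 46 of 67 genes (68.7%), against 4 of 21607 other protein-coding genes (0.0185%). The models of 17 of the 67 genes hold under 50 bases after the stop codon, most of them no base at all, and none of these gave a match. A missing match there does not show that the gene lacks a stem-loop. The 4 other protein-coding genes with a match were Gm9507, H2afx, H2bfm and Ttc14, of which H2afx encodes the H2A.X variant. A single 16-base form, the one shown for Hist1h1c, was shared by 26 genes of classes H1, H2A, H2B and H3. The H4 genes carried other forms. 7 H4 genes had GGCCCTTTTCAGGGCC, and Hist1h4i shared its form with Hist2h4. The hexamer was found near the annotated end in 16 of 67 genes (23.9%), against 75.8% of other protein-coding genes. A match describes letters in an annotated transcript, and it does not show where an mRNA of these libraries ended.

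Histone reads were few in all 4 libraries. The 67 genes together had 1274 and 880 reads in Piezo1KO 1 and Piezo1KO 2, against 1074 and 1082 reads in WT 1 and WT 2. Of all assigned reads this was 0.00831% and 0.00638% in the Piezo1KO libraries, with exact 95% binomial intervals of 0.00786 to 0.00878% and 0.00597 to 0.00682%. In the WT libraries it was 0.00686% and 0.00681%, with intervals of 0.00646 to 0.00729% and 0.00641 to 0.00723%. These intervals cover counting error only. The WT shares lay between the Piezo1KO shares. Of the reads outside mitochondrial genes, histones took 0.0104% and 0.0123% in the Piezo1KO libraries, against 0.00714% and 0.00702% in the WT libraries. On that base both Piezo1KO shares lay above both WT shares.

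No read was found on 21 of the 67 genes in any library. A further 16 had 1 to 9 reads over the 4 libraries, 26 had 10 to 99, and 4 had 100 or more. The genes without a read were 2 of H1, 7 of H2A, 6 of H2B, 2 of H3 and 4 of H4. At least 1 read was found on 35 and 33 genes in the Piezo1KO libraries, against 31 and 39 genes in the WT libraries. For a gene of 400 bases, 3 reads amount to 0.509 and 1.0007 FPKM in Piezo1KO 1 and Piezo1KO 2, against 0.380 and 0.369 FPKM in WT 1 and WT 2. For a gene of that length, a level below this rests on fewer than 3 reads. For a longer gene the same reads amount to a lower FPKM. The testis histones Hist1h2aa and Hist1h2ba had no read, and the testis linker histone Hist1h1t had 2 and 1 reads in the Piezo1KO libraries, against 0 and 1 reads in the WT libraries.

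4 genes held most of the histone reads. Hist1h1c, Hist1h2bc, Hist2h2be and Hist1h4i together took 78.8% and 75.1% of them in the Piezo1KO libraries, against 76.9% and 78.0% in the WT libraries. Hist1h1c, a linker histone, alone took 48.7% and 42.6% in the Piezo1KO libraries, against 37.4% and 39.0% in the WT libraries. The other 63 genes averaged 0.335 and 0.548 FPKM in the Piezo1KO libraries, against 0.240 and 0.224 FPKM in the WT libraries. The 1135 olfactory receptor genes, taken as a background of genes with no known use in these cells, averaged 0.00273 and 0.00405 FPKM in the Piezo1KO libraries, against 0.000985 and 0.000817 FPKM in the WT libraries. The other 63 histone genes therefore stood at a mean level 123 and 135 times that of the receptors in the Piezo1KO libraries, and 244 and 274 times in the WT libraries. Both sets had higher mean FPKM in both Piezo1KO libraries.

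**Figure D1:**
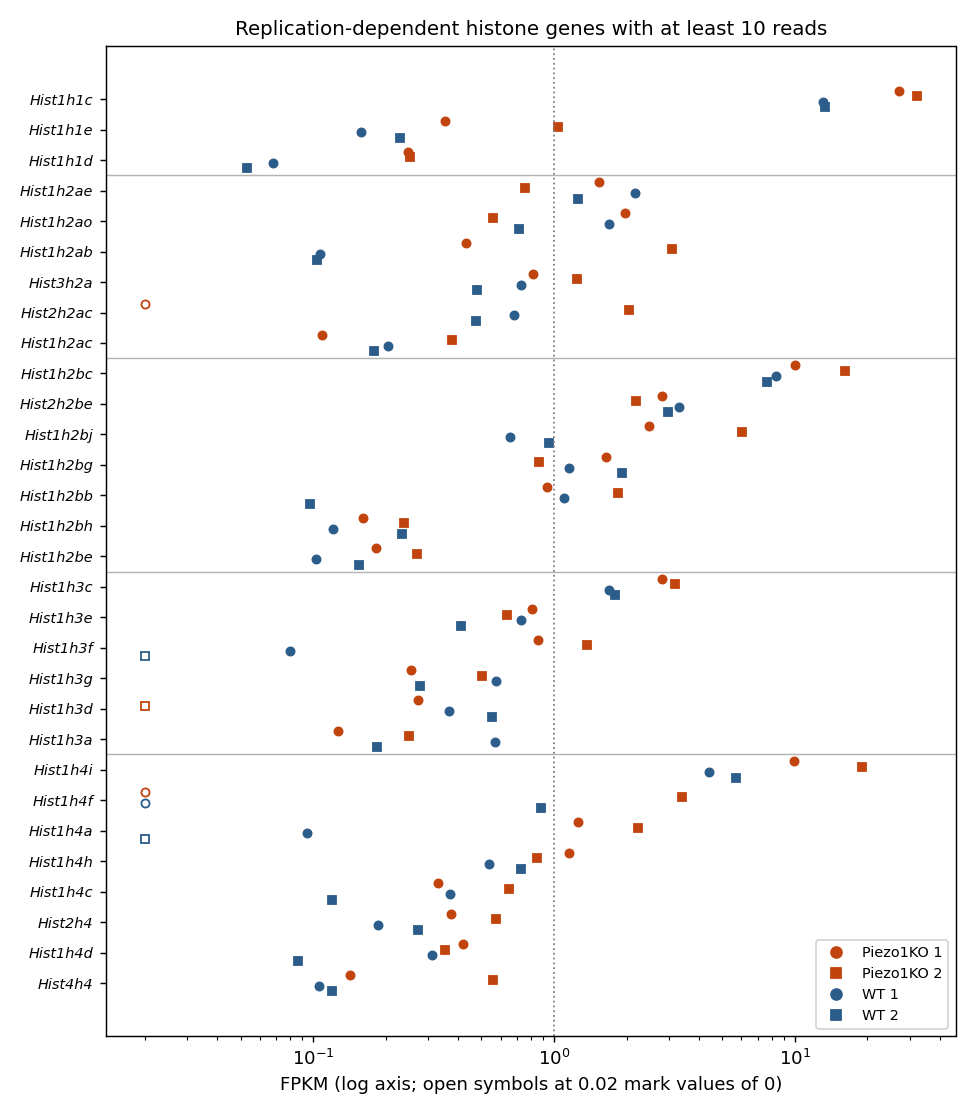
FPKM of the 30 replication-dependent histone genes with at least 10 reads, by class from H1 at the top to H4 at the bottom, on a log axis; each point is 1 library, open symbols at 0.02 stand for 0, and the dotted line marks the mean FPKM of 1 used as a filter. By mean FPKM over the libraries, Hist1h1c, Hist1h2bc and Hist1h4i lie to the right of the others, and most genes lie below 1 FPKM.

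By class, summed FPKM was highest for H1, which binds the linker DNA between nucleosomes. H1 summed to 27.7 and 33.5 FPKM in the Piezo1KO libraries, against 13.3 and 13.6 FPKM in the WT libraries. Nearly all of it was Hist1h1c. H2B, which pairs with H2A in the nucleosome core, summed to 18.5 and 28.3 FPKM in the Piezo1KO libraries, against 15.2 and 14.2 FPKM in the WT libraries. H4, which pairs with H3, summed to 14.1 and 27.5 FPKM in the Piezo1KO libraries, against 6.0 and 8.01 FPKM in the WT libraries. In these 3 classes both Piezo1KO values lay above both WT values, and the Piezo1KO libraries lay further apart from each other than the WT libraries did.

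H3 summed to 5.36 and 5.94 FPKM in the Piezo1KO libraries, against 4.17 and 3.55 FPKM in the WT libraries. H2A summed to 5.05 and 8.56 FPKM in the Piezo1KO libraries, against 5.58 and 4.31 FPKM in the WT libraries, and its groups overlapped. The log2 ratio of the group means was 1.57 for H4, 1.18 for H1, 0.67 for H2B, 0.55 for H3 and 0.46 for H2A. For all 67 genes summed FPKM was 87.3 ± 23.5 in the Piezo1KO and 44.0 ± 0.375 in the WT libraries (SD, n = 2 each), a log2 ratio of 0.99. With FPKM rescaled to all assigned reads that ratio was 0.16, and the ratios of H2A, H2B and H3 fell below 0, at -0.40, -0.17 and -0.22. The direction of these 3 classes therefore depended on what the library was scaled to, while H1 and H4 stayed higher in the Piezo1KO libraries, at 0.39 and 0.68. No test was made of these sums. Every H2A gene overlaps a predicted gene on the other strand, so the H2A sums are less certain than those of the other classes.

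**Figure D2:**
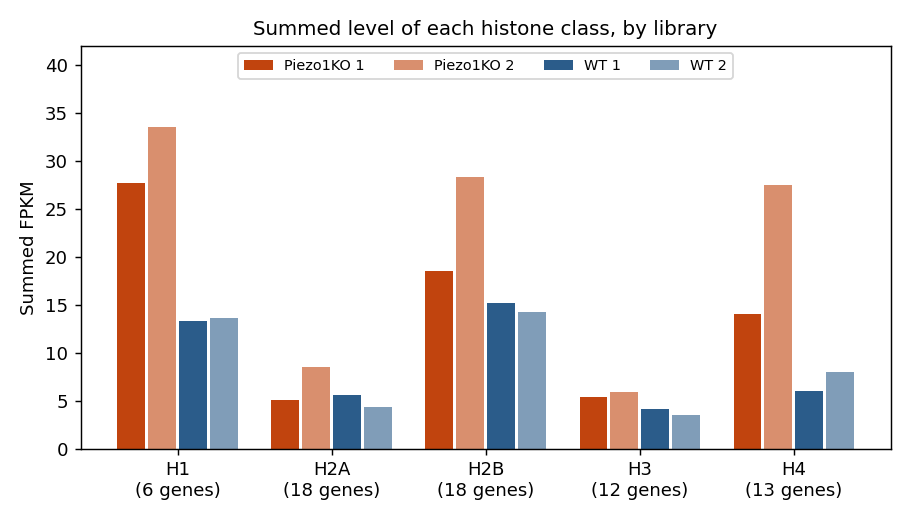
Summed FPKM of each histone class, with 1 bar for each library and the 2 Piezo1KO bars left of the 2 WT bars. H1 and H4 show the widest gap between groups, H2A overlaps, and Piezo1KO 2 is the highest library in all 5 classes.

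The share of a library's histone reads that falls on each class does not depend on the scaling. H1 held 51.7% and 46.0% of histone reads in the Piezo1KO libraries, against 38.9% and 40.7% in the WT libraries. H4 held 12.0% and 17.2% in the Piezo1KO libraries, against 8.75% and 10.998% in the WT libraries. H2B held 26.4% and 26.7% in the Piezo1KO libraries, against 38.1% and 36.8% in the WT libraries. Thus H1 and H4 took a higher share, and H2B a lower one, in both Piezo1KO libraries. Exact 95% intervals, which cover the counting error of each library and not the spread between libraries, were 24.0 to 28.9% and 23.8 to 29.8% for H2B in the Piezo1KO libraries, against 35.2 to 41.1% and 33.9 to 39.7% in the WT libraries. For H1 the interval of Piezo1KO 2, 42.7 to 49.4%, overlapped that of WT 2, 37.7 to 43.7%. For H4 the interval of Piezo1KO 1, 10.3 to 13.9%, overlapped that of WT 2, 9.20 to 13.02%. H2A held 5.02% and 6.14% in the Piezo1KO libraries, against 8.85% and 6.65% in the WT libraries, and H3 held 4.87% and 3.98% in the Piezo1KO libraries, against 5.40% and 4.90% in the WT libraries. For H2A and H3 the interval of each library overlapped that of a library of the other group.

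By position, the Hist1 cluster on chromosome 13 held most of the genes and most of the summed FPKM in every library, and with them most of the difference. Its 54 genes summed to 66.3 and 97.2 FPKM in the Piezo1KO libraries, against 39.2 and 39.4 FPKM in the WT libraries. The 10 genes of the Hist2 cluster on chromosome 3 summed to 3.24 and 4.82 FPKM in the Piezo1KO libraries, against 4.18 and 3.76 FPKM in the WT libraries, and these groups overlapped. Hist3, with 2 genes on chromosome 11, summed to 1.04 and 1.24 FPKM in the Piezo1KO libraries, against 0.733 and 0.481 FPKM in the WT libraries. Hist4h4, alone on chromosome 6, had 0.142 and 0.559 FPKM in the Piezo1KO libraries, against 0.106 and 0.120 FPKM in the WT libraries. The log2 ratio of the group means was 1.06 for Hist1, 0.021 for Hist2, 0.91 for Hist3 and 1.63 for Hist4.

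Single genes were tested as log2(FPKM + 1) with limma, over the 11085 genes whose FPKM averaged 1 or more, and 10 histone genes passed that filter. None of the 10 passed the test at an adjusted p of 0.05, where 1.1% of all tested genes did (81 higher and 41 lower in the Piezo1KO libraries). At an unadjusted p under 0.05 there were 4 of 10, where 28.6% of all tested genes were. With limma's voom on the recovered reads 0 were called and 1 of 10 had an unadjusted p under 0.05, where 38.2% of all genes did. In 5 of the 10 both Piezo1KO values lay above both WT values, where 33.9% of all tested genes did. In 1 both lay below, where 35.6% of all tested genes did. The median log2 fold change of the 10 was 0.57, against -0.0059 over all genes tested. The filter is set on the mean of the 4 libraries, so a gene low in 1 group could pass through the other. Hist1h2bj and Hist1h4f passed through the Piezo1KO libraries alone, so the counts and the median of the 10 are a description.

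Hist1h1c (chr13:23738808-23740367, + strand) had 26.9 and 32.1 FPKM in the Piezo1KO libraries, against 13.1 and 13.3 FPKM in the WT libraries. These values came from 620 and 375 reads in the Piezo1KO libraries, against 402 and 422 reads in the WT libraries. The groups did not overlap, and the spread within each was small beside the gap between them. The log2 fold change was 1.10 ± 0.15 (SE) with an adjusted p of 0.0677 in limma. As CPM over the reads outside mitochondrial genes it had 50.6 and 52.6 in the Piezo1KO libraries, against 26.7 and 27.4 in the WT libraries. As CPM over all assigned reads it had 40.4 and 27.2 in the Piezo1KO libraries, against 25.7 and 26.6 in the WT libraries, where Piezo1KO 2 was near the WT values. Over the alternatives its log2 fold change lay between 0.33, with FPKM rescaled to all assigned reads, and 1.22, its adjusted p between 0.00261 and 0.657, and it was called in 3 of 15. With protein-coding genes alone its adjusted p was 0.0486, and 1.35% of all genes were called. It was called without Piezo1KO 1, where 52.9% of all genes were called, and without Piezo1KO 2, where 14.2% were. Relative to H1f0, the replication-independent linker histone, Hist1h1c stood at an FPKM ratio of 0.184 and 0.164 in the Piezo1KO libraries, against 0.0814 and 0.0806 in the WT libraries.

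The other H1 genes were low. Hist1h1e had 10 and 15 reads in the Piezo1KO libraries, against 6 and 9 reads in the WT libraries, and it overlaps Hist1h2be on the same strand. Hist1h1d had 27 and 14 reads in the Piezo1KO libraries, against 10 and 8 reads in the WT libraries. Its level was 0.247 and 0.252 FPKM in the Piezo1KO libraries, against 0.0683 and 0.0530 FPKM in the WT libraries, over an annotated length of 7425 bases. Both genes lay higher in both Piezo1KO libraries and were below the filter.

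Among the H2B genes, Hist1h2bc (chr13:23684199-23692908, + strand) had the highest level. It had 9.97 and 16.2 FPKM in the Piezo1KO libraries, against 8.34 and 7.65 FPKM in the WT libraries. Its log2 fold change was 0.61 ± 0.25 (SE) with an adjusted p of 0.188 in limma, and it was -0.13 with FPKM rescaled to all assigned reads. Without Piezo1KO 1, where 52.9% of all genes were called, it was 0.93 with an adjusted p of 0.00602.

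Hist2h2be (chr3:96221119-96223738, + strand) was the tested histone gene with both Piezo1KO values below both WT values. It had 2.79 and 2.19 FPKM in the Piezo1KO libraries, against 3.31 and 2.96 FPKM in the WT libraries. Its log2 fold change was -0.25 ± 0.16 (SE) with an adjusted p of 0.338 in limma, and it lay below 0 in all 14 alternatives that could test it. Relative to Hist1h2bc its FPKM ratio was 0.280 and 0.136 in the Piezo1KO libraries, against 0.397 and 0.387 in the WT libraries.

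Hist1h2bj (chr13:22043214-22043676, + strand) had 2.49 and 6.05 FPKM in the Piezo1KO libraries, against 0.657 and 0.955 FPKM in the WT libraries. This rested on 17 and 21 reads in the Piezo1KO libraries, against 6 and 9 reads in the WT libraries. Its WT mean of 0.806 FPKM was below the filter, which it passed through the Piezo1KO libraries alone, so its log2 fold change of 1.46 ± 0.37 (SE), with an adjusted p of 0.132 in limma, is a description. Hist1h2bg had 15 and 4 reads in the Piezo1KO libraries, against 14 and 24 reads in the WT libraries, with an adjusted p of 0.678 in limma. Hist1h2bb stood just below the filter, at a mean of 0.992 FPKM, with 7 and 7 reads in the Piezo1KO libraries, against 11 and 1 reads in the WT libraries.

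Of the H4 genes, Hist1h4i (chr13:22040636-22041362, - strand) stood out in level. It had 9.89 and 18.9 FPKM in the Piezo1KO libraries, against 4.39 and 5.68 FPKM in the WT libraries. The reads were 106 and 103 in the Piezo1KO libraries, against 63 and 84 in the WT libraries. The groups did not overlap, and the 2 Piezo1KO values lay nearly as far apart as the group means did. Its log2 fold change was 1.29 ± 0.33 (SE) with an adjusted p of 0.132 in limma, and it lay between 0.57 and 1.73 over the alternatives. It was called in 3 of 15, those with the replicate block, where 2.38% of all genes were called, and those that left out Piezo1KO 1 or Piezo1KO 2, with adjusted p-values over all 15 of 0.00431 to 0.657. Relative to Hist1h2bc its FPKM ratio was 0.991 and 1.17 in the Piezo1KO libraries, against 0.527 and 0.742 in the WT libraries.

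Hist1h4f stood just above the filter, at a mean of 1.07 FPKM, and was read in 1 library of each group. It had 0 and 10 reads in the Piezo1KO libraries, against 0 and 7 reads in the WT libraries, with an adjusted p of 0.602 in limma. Its WT mean was 0.440 FPKM, so it passed the filter through Piezo1KO 2 alone, and its log2 fold change turned to -0.46 without that library. Hist1h4a, below the filter, had 10 and 9 reads in the Piezo1KO libraries, against 1 and 0 reads in the WT libraries.

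In class H3, Hist1h3c (chr13:23744973-23745602, - strand) led. It had 2.80 and 3.18 FPKM in the Piezo1KO libraries, against 1.69 and 1.79 FPKM in the WT libraries, from 26 and 15 reads in the Piezo1KO libraries, against 21 and 23 reads in the WT libraries. Its log2 fold change was 0.54 ± 0.15 (SE) with an adjusted p of 0.139 in limma, and it was -0.018 with FPKM rescaled to all assigned reads. Without Piezo1KO 1 its adjusted p was 0.0223. Hist1h3f had 16 and 13 reads in the Piezo1KO libraries, against 2 and 0 reads in the WT libraries. Hist1h3e had 10 and 4 reads in the Piezo1KO libraries, against 12 and 7 reads in the WT libraries, and its FPKM values overlapped.

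In class H2A, Hist1h2ae had the highest mean level. It had 1.54 and 0.758 FPKM in the Piezo1KO libraries, against 2.16 and 1.26 FPKM in the WT libraries, with a log2 fold change of -0.34 and an adjusted p of 0.441 in limma. Hist1h2ao had 1.98 and 0.556 FPKM in the Piezo1KO libraries, against 1.69 and 0.717 FPKM in the WT libraries, with an adjusted p of 0.997 in limma. Only 7.35% of the 100-base windows of Hist1h2ao were found in no other gene, so its reads could belong to near-identical copies. Hist1h2ab had 3 and 11 reads in the Piezo1KO libraries, against 1 and 1 reads in the WT libraries. Every H2A gene, tested or not, overlaps a predicted gene on the other strand, and few genes of the other classes overlap any gene. Without a stated strand setting, reads of an H2A gene cannot be told apart from reads of the predicted gene. This limits the class sums and shares of H2A as well as its single genes.

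Of the 20 genes with at least 10 reads that did not pass the filter, 11 had both Piezo1KO values above both WT values, where 20.8% of all 5280 genes with as many reads below the filter did. In 1, Hist1h3d, both lay below, where 31.7% of those genes did. Hist1h3d had 5 and 0 reads in the Piezo1KO libraries, against 9 and 14 reads in the WT libraries. The count of 11 rests on FPKM as deposited. As CPM over all assigned reads, Hist3h2a had 1.70 and 1.45 in the Piezo1KO libraries, against 1.98 and 1.32 in the WT libraries, which overlap. On that base Hist1h2ab and Hist1h4a did not overlap. In read counts Hist1h2be, Hist1h4d, Hist1h4h, Hist2h4 and Hist4h4 overlapped too, and Hist1h1d, Hist1h1e and Hist1h3f did not. Hist1h2be, for example, had 12 and 9 reads in the Piezo1KO libraries, against 9 and 14 reads in the WT libraries. The share of all genes on that base was not counted, so the count of 11 is a description. Without any filter 46 histone genes were tested with limma, and 0 were called. Of the 46, 9 had an unadjusted p under 0.05, where 17.6% of all genes tested that way did.

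Gene length moved with these fold changes. The 276 tested protein-coding genes under 1000 bases had a median log2 fold change of 1.01, against -0.044 for the 9664 longer ones. The 7 tested histone genes under 1000 bases had a median of 0.54. With the length trend of each library removed, the median of the 10 histone genes was -0.17. Hist1h1c, Hist1h4i, Hist1h2bj and Hist1h2bc stayed above 0 there, and Hist1h3c, Hist1h2ao and Hist1h4f moved below it. The part of gene length in the histone values was not tested beyond this.

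**Figure D3:**
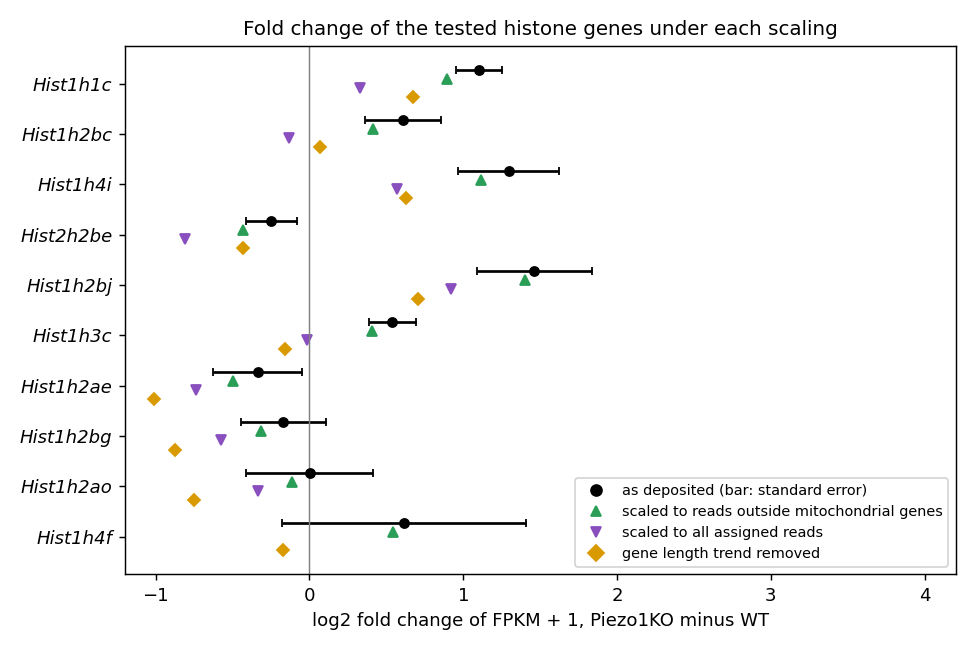
Log2 fold change of FPKM + 1, Piezo1KO minus WT, for the 10 tested histone genes as deposited (circles, bar = standard error, n = 2 each), with FPKM rescaled to reads outside mitochondrial genes (upward triangles), rescaled to all assigned reads (downward triangles) and with the gene length trend removed (diamonds). Hist1h1c, Hist1h4i and Hist1h2bj stay above 0 in all 4, Hist2h2be, Hist1h2ae and Hist1h2bg stay below 0, and Hist1h2bc, Hist1h3c, Hist1h2ao and Hist1h4f change side; Hist1h4f has no value rescaled to all assigned reads, where it did not pass the filter.

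Reads were found mainly on the genes annotated with a long stretch after the stop codon. The 28 genes with at least 150 bases there held 92.3% of the histone reads. They summed to 59.7 and 81.3 FPKM in the Piezo1KO libraries, against 36.0 and 35.8 FPKM in the WT libraries. The 39 genes with fewer than 150 bases held 7.73% and summed to 11.02 and 22.5 FPKM in the Piezo1KO libraries, against 8.20 and 7.92 FPKM in the WT libraries. The 17 genes with under 50 annotated bases after the stop codon had 6 reads in all. Both Piezo1KO sums were above both WT sums in each of the first 2 sets.

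The 13 genes with a stem-loop and a downstream hexamer held 57.2% of the histone reads, and the 33 with a stem-loop only held 15.5%. The 3 with a hexamer only held 11.3%, nearly all on Hist2h2be. The 18 with neither held 15.9%, nearly all on Hist1h2bc, whose annotated transcript has 2 exons and 742 bases after the stop codon. All 4 genes that led the reads thus had annotated models that ran at least 376 bases past the stop codon. The Hist1h1c model is 1560 bases long, against a span of 725 bases for the same gene (H1f2) in RefSeq, and the Hist1h4i model is 727 bases long, against 403 bases (H4c9). A longer model lowers FPKM for the same reads.

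Copies of a histone class resemble each other, and a read that matches several genes may be lost in counting. 17 genes had under 25% of their 100-base windows found in no other gene, and together they had 56 reads. The 23 genes with at least 75% held 70.0% of the histone reads. In 5 genes no window was unique, and none of these had a read, while 9 of the 21 genes without a read had under 25%. Over the 67 genes, Spearman's rho with total reads was 0.43 for the share of unique windows and 0.66 for the bases after the stop codon, and 0.43 between those 2 features. The points share libraries, length and sequence family, so these values are a description.

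**Figure D4:**
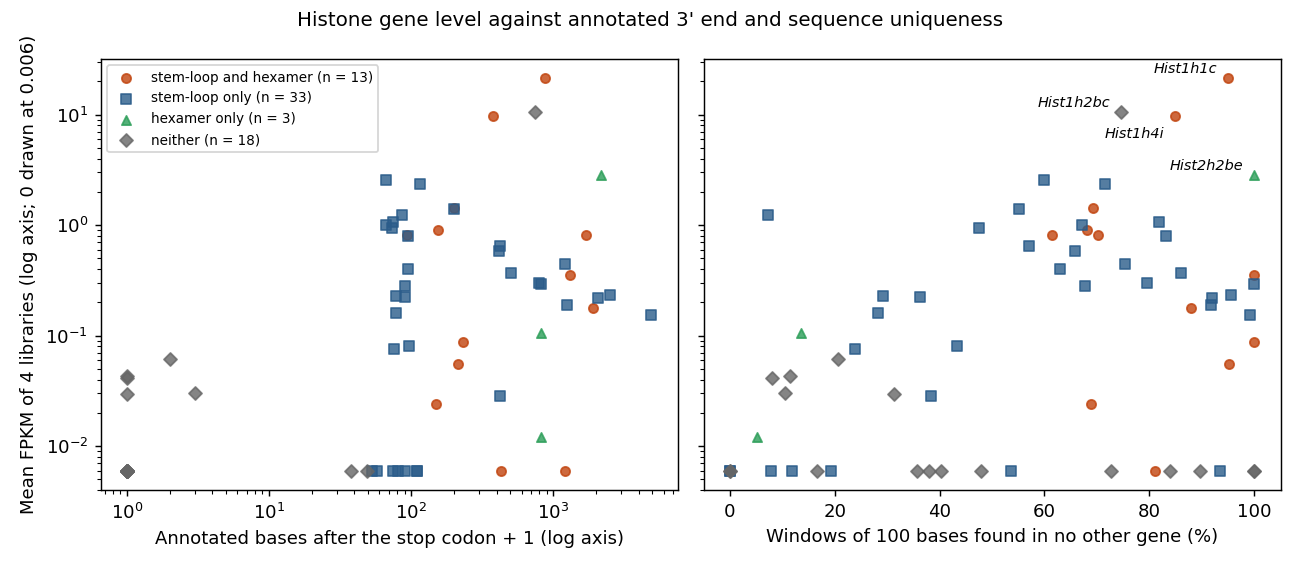
Mean FPKM of the 67 genes over the 4 libraries, on a log axis with 0 drawn at 0.006, against annotated bases after the stop codon plus 1 (left, log axis) and against the percentage of 100-base windows found in no other gene (right). Hist1h1c, Hist1h2bc, Hist1h4i and Hist2h2be stand at the upper right of both panels, and the genes with few annotated bases after the stop codon lie at or near 0.

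Replication-independent histones, most of whose mRNAs are polyadenylated and made throughout the cell cycle, were far more abundant. The 11 listed genes summed to 814 and 1173 FPKM in the Piezo1KO libraries, against 713 and 714 FPKM in the WT libraries. Their summed FPKM was 11.5 and 11.3 times that of the replication-dependent genes in the Piezo1KO libraries, against 16.1 and 16.3 times in the WT libraries. This ratio does not depend on library scaling, and its groups did not overlap. It was not adjusted for gene length. As deposited, the median log2 fold change was 0.24 for the tested replication-independent genes and 0.57 for the tested replication-dependent genes. With the length trend removed these medians were 0.014 and -0.17. An exact permutation test of 2 libraries against 2 cannot give a p below 0.33, so none is given.

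Of these 11, 10 were tested and 0 were called by limma, with 2 at an unadjusted p under 0.05, where 28.6% of all tested genes were, and a median log2 fold change of 0.24. H3f3b, which encodes the H3.3 variant, had 288 and 409 FPKM in the Piezo1KO libraries, against 216 and 213 FPKM in the WT libraries, with an adjusted p of 0.175 in limma. H2afz, which encodes H2A.Z, had 197 and 295 FPKM in the Piezo1KO libraries, against 180 and 180 FPKM in the WT libraries, with an adjusted p of 0.323. H1f0 had 146 and 195 FPKM in the Piezo1KO libraries, against 161 and 165 FPKM in the WT libraries, with an adjusted p of 0.872. H2afx, whose gene also holds a histone stem-loop, had 34.6 and 57.4 FPKM in the Piezo1KO libraries, against 30.3 and 36.2 FPKM in the WT libraries, with an adjusted p of 0.348. H2afj and H2afv had log2 fold changes of 1.17 and 0.95, with adjusted p-values of 0.135 and 0.162.

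The factors that make histone mRNA did not pass the test either. Of 17 listed, 15 were tested and limma called 0, with 4 at an unadjusted p under 0.05, near the 28.6% of all tested genes, and a median log2 fold change of -0.073. Slbp, the stem-loop binding protein, had 6.99 and 7.91 FPKM in the Piezo1KO libraries, against 7.60 and 8.15 FPKM in the WT libraries. Its groups overlapped, at a log2 fold change of -0.073. Npat, the coactivator of histone gene transcription, had 2.17 and 2.16 FPKM in the Piezo1KO libraries, against 3.95 and 4.16 FPKM in the WT libraries, a log2 fold change of -0.68 with an adjusted p of 0.117 in limma. Lsm10, a subunit of the U7 particle, had 15.6 and 15.99 FPKM in the Piezo1KO libraries, against 7.15 and 8.55 FPKM in the WT libraries, a log2 fold change of 0.93 with an adjusted p of 0.0809. Casp8ap2, needed for histone transcription and processing, was at -0.73, and Srrt, which works with the cap-binding complex, was at -0.49, with adjusted p-values of 0.139 and 0.157.

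Genes of the phase in which histones are made were measured beside them. All 24 S phase genes were tested and limma called 0, with 3 at an unadjusted p under 0.05, against 28.6% of all tested genes, and a median log2 fold change of -0.039. Pcna, the sliding clamp of DNA replication, had 107 and 130 FPKM in the Piezo1KO libraries, against 110 and 113 FPKM in the WT libraries. Rrm2, a subunit of ribonucleotide reductase, had 90.2 and 92.8 FPKM in the Piezo1KO libraries, against 98.0 and 116 FPKM in the WT libraries, with an adjusted p of 0.413. Cdc6, Cdk2, Fen1 and Pola1 had the smallest p of the list. Their log2 fold changes were -0.65, -0.61, -1.02 and -0.32, with adjusted p-values of 0.126, 0.128, 0.138 and 0.187 in limma. Fen1 had 27 and 2 reads in the Piezo1KO libraries, against 83 and 96 reads in the WT libraries. Its Piezo1KO mean of 0.433 FPKM was below the filter, which it passed through the WT libraries alone. Its values, and its place among the 3, are therefore a description. Fold changes of the listed genes and of the histones come from the same 4 libraries, so they are not independent of each other.

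Of 17 histone chaperone genes, all tested, limma called 0, with 2 at an unadjusted p under 0.05, against 28.6% of all tested genes, and a median log2 fold change of 0.051. Hjurp, the CENP-A chaperone, had the smallest p, at -0.89 with an adjusted p of 0.118. Of 16 mitosis genes limma called 0, with 3 at an unadjusted p under 0.05, against the same 28.6%, and a median of -0.13. Cenpf, a kinetochore protein, had the smallest p, at -0.64 with an adjusted p of 0.123. Mki67, a marker of proliferating cells, had 13.1 and 16.1 FPKM in the Piezo1KO libraries, against 8.84 and 14.8 FPKM in the WT libraries, with an adjusted p of 0.443. The medians of these lists moved with the scaling, as did the median of all genes, which lay at -0.67 when FPKM was rescaled to all assigned reads.

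Other RNAs without a long poly(A) tail had a median below 0 with FPKM as deposited, where the histone median was above 0. The histone median was -0.13 rescaled to all assigned reads, -0.084 with voom and -0.17 with the length trend removed, and above 0 in the other alternatives. Of 2943 genes of small nuclear, small nucleolar and small Cajal body RNAs, 96 were tested, and 24 fell and 0 rose in the Piezo1KO libraries, with a median log2 fold change of -1.70. Of all tested genes 1.1% were called in either direction. Of the 24, 22 had a Piezo1KO mean below the filter and passed it through the WT libraries alone, as did 61 of the 96, so these values are a description. Without a filter the median was -0.45. All 2943 summed to 115 and 271 FPKM in the Piezo1KO libraries, against 489 and 626 FPKM in the WT libraries. Snord70, a small nucleolar RNA, was listed at 0 FPKM in both Piezo1KO libraries, against 9.91 and 8.47 FPKM in the WT libraries, with an adjusted p of 0.0153 in limma. It passed the filter through the WT libraries alone, so this too is a description.

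Markers of other cell types moved with the groups. All 5 erythroid markers rose in the Piezo1KO libraries, where they summed to 5124 and 8472 FPKM, against 389 and 244 FPKM in the WT libraries. Here rose means called higher by limma, where 1.1% of all tested genes were called in either direction. Hba-a1, an alpha globin gene, had 2504 and 2992 FPKM in the Piezo1KO libraries, against 177 and 106 FPKM in the WT libraries. Of 7 myeloid markers 6 were tested and 1, Tyrobp, rose, with sums of 306 and 176 FPKM in the Piezo1KO libraries, against 54.2 and 40.3 FPKM in the WT libraries. Of 4 neutrophil markers 2, S100a8 and S100a9, rose, both with WT means below the filter, of 0.287 and 0.331 FPKM. They passed it through the Piezo1KO libraries alone, so these 2 calls are a description. The 4 neutrophil markers had sums of 139 and 47.1 FPKM in the Piezo1KO libraries, against 0.713 and 1.23 FPKM in the WT libraries. The 4 B cell markers summed to 3.02 and 1.05 FPKM in the Piezo1KO libraries, against 1.29 and 1.06 FPKM in the WT libraries. Of these, 1 was tested and not called, Cd79a, with a WT mean of 0.893 FPKM, also below the filter. None of the 7 melanocyte markers and none of the 4 tested T cell markers was called by limma. An unadjusted p under 0.05 was found for 1 of 7 and 4 of 4, where 28.6% of all tested genes had one. Trbc2, Trac and Thy1 had WT means of 0.071, 0.158 and 0.662 FPKM and passed the filter through the Piezo1KO libraries alone. The 4 of 4 is therefore a description. The part of other cells and of the mitochondrial share in the histone values was not tested.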

How the data were processed

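The authors deposited 1 FPKM value per gene and library with the gene length, from reads cleaned with fastp 0.19.7 and counted with featureCounts 1.5.0-p3; the submitters' processing notes name the build as mm10 and GRCm38. The sources used here name no aligner, annotation release, strand setting, rule for multi-mapped reads or FPKM formula. FPKM multiplied by length gave whole reads for 100% of values (tolerance 0.05 reads). The library size it implies was 0.962 and 0.544 times the assigned reads in the Piezo1KO libraries, and 1.26 and 1.28 times in the WT libraries. Replicate numbers are those of the titles, and the column names number the WT libraries differently.

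limma 3.58.1 (R 4.3.3) was run on log2(FPKM + 1) (eBayes with an intensity trend, 2 residual and 2.59 prior degrees of freedom), two-sided, for genes whose FPKM averaged 1 or more, with Benjamini-Hochberg adjustment over all 11085 and a threshold of 0.05. Such fold changes understate those of low genes. Stem-loops, hexamers and unique windows were searched in GENCODE vM21 transcripts, where all 67 genes had the coordinates of the table. 24 of them overlap another gene, among them every gene of class H2A. RefSeq spans were matched for 66 by symbol or synonym. The genes named were Piezo1, called genes, the 3 highest of each class, the 6 smallest p-values, those beside the filter, testis histones, up to 4 per list by p, and 9 fixed genes. Others were named as examples after their values were seen. The members and lists were chosen with earlier results of these data known.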

Additional observations from a re-analysis of the deposited data

How the results depend on the processing

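The number of genes called in all, 122 as reported, was 1 without a filter, 68 at a mean FPKM of at least 5, 192 with quantile normalization, 1718 with FPKM rescaled to all assigned reads, 1512 with voom, 7 with the length trend removed, 264 with the replicate block, and 0 to 5859 when 1 library was left out. The share of higher calls, 66.4% as reported, was 14.7% rescaled to all assigned reads, 56.1% rescaled to reads outside mitochondrial genes, 13.3% with voom, 87.3% with protein-coding genes alone, 85.3% at a mean FPKM of at least 5 and 85.7% with the length trend removed. The median of all genes moved to -0.67, -0.20 and -0.82 under the first 3 of these. Histone genes called, 0 as reported, were 1 with protein-coding genes alone (Hist1h1c), 1 with the replicate block (Hist1h4i), 6 without Piezo1KO 1 (Hist1h1c, Hist1h2bc, Hist1h2bj, Hist1h3c, Hist1h4f and Hist1h4i), 3 without Piezo1KO 2 (Hist1h1c, Hist1h2bj and Hist1h4i), and 0 without either WT library. Of all genes, 5859 (52.9%) were called without Piezo1KO 1, 1579 (14.2%) without Piezo1KO 2 and 0 without either WT library. With 1 library left in a group, it is assumed to vary like the other group. Same-numbered libraries had a correlation of deviations of -0.033. With 2 libraries in each group this cannot show whether the numbers pair the libraries, so the replicate block rests on an unknown pairing.

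The histone median of 0.57 was 0.70 with a pseudocount of 0.1, 0.14 without a filter, 1.10 at a mean FPKM of at least 5, -0.13 rescaled to all assigned reads, -0.084 with voom, -0.17 with the length trend removed, and 0.38 to 0.77 with 1 library left out. Piezo1 was called at -1.87 rescaled to all assigned reads and at -2.02 with voom, and lay between -1.73 and -0.55 with 1 library left out, being called without either Piezo1KO library. Rescaled to all assigned reads, the log2 ratio of summed FPKM was 0.16 for all histones, 0.39 for H1, -0.40 for H2A, -0.17 for H2B, -0.22 for H3 and 0.68 for H4, and rescaled outside mitochondrial genes it was 0.95 for H1 and 0.32 for H3. Without its top gene it was 1.96 for H1 and 0.33 for H3. With 1 library left out, a choice made after seeing the data, it was 0.68 to 1.24 for all, 1.04 to 1.32 for H1, 0.031 to 0.79 for H2A, 0.33 to 0.94 for H2B, 0.44 to 0.67 for H3 and 1.01 to 1.97 for H4. The histone share outside mitochondrial genes was 0.0104% and 0.0123% in the Piezo1KO libraries.

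Hist1h2ao reversed to -0.051 with a pseudocount of 0.1, -0.33 rescaled to all assigned reads, -0.11 outside mitochondrial genes, -0.74 with voom, -0.75 with the length trend removed, and within -0.47 to 0.47 with 1 library left out. Hist1h2bc reversed to -0.13 rescaled to all assigned reads and -0.14 with voom. Hist1h3c reversed to -0.018, -0.025 with voom and -0.16 with the length trend removed. Hist1h4f reversed to -0.17 with the length trend removed and -0.46 without Piezo1KO 2, and lay within -0.46 to 1.69 with 1 library left out. Hist1h2bg reversed to 0.082 without Piezo1KO 2 and 0.047 without WT 2, within -0.42 to 0.082. The cause was not tested. Genes with few reads limit all of these values, since only 30 of 67 genes had 10 or more.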

Other observations

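The table holds 3 further rows with histone symbols that are not protein coding. Hist3h2bb-ps, a pseudogene, had 0 and 4 reads in Piezo1KO 1 and Piezo1KO 2, against 3 and 5 reads in WT 1 and WT 2. Hist1h2aj and Hist1h2al had no read in any library.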
